A study of Mus musculus with 35 samples.

Results

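Brain was compared with cerebellum across all genes in 12 of the 35 samples of a survey of adult mouse tissues. The 12 libraries came from C57BL/6J mice, an inbred laboratory strain, and comprised 3 female brain, 3 male brain, 3 female cerebellum and 3 male cerebellum libraries with no treatment or altered gene. Total RNA was depleted of ribosomal RNA and made into strand-specific (dUTP) libraries, and reads were counted over an annotation that joined long-read transcripts of the same tissues with a reference annotation. Of the 35 samples, 29 had a column of counts and 6 were long-read runs that entered here only through that annotation. The labels gave an adult stage but no age, did not say which libraries came from 1 animal and did not say whether the tissue called brain had its cerebellum removed, so p-values measure the spread between libraries. Of 55356 annotated features, 21643 passed the filter on low counts and were tested, among them 15658 protein-coding genes and 3392 long non-coding RNAs (lncRNAs). Library totals ran from 19075669 to 36194255 counts.

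The forebrain and the cerebellum arise from different parts of the early neural tube, the foremost part and the front of the hindbrain, and their neurons keep the transcription factors of their origin into adult life. Cerebellar cortex is built from a few repeated cell types: granule cells, which are the most numerous neurons of the brain, Purkinje cells, which carry its only output, and inhibitory interneurons and Bergmann glia around them. Purkinje cells are known for calcium signalling through metabotropic glutamate receptors and the IP3 receptor, whereas cortex, hippocampus and striatum are known for plasticity through NMDA receptors, CaM kinase II and cyclic AMP. In bulk tissue, fewer cells of a type and less RNA per cell cannot be told apart.

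The tissue labels were set beside known markers. Transcripts of Pcp2, a regulator of G proteins used as the classical marker of Purkinje cells, lay between 2.03 and 8.02 FPKM in the 6 brain libraries (counts per kilobase of exon and per 1000000 counts of the library; median 3.37) and between 857 and 1880 FPKM (median 1370) in the 6 cerebellum libraries. Emx2, a homeobox factor of the dorsal forebrain, lay between 6.59 and 10.9 FPKM in brain and between 0 and 0.217 FPKM in cerebellum. No library fell into the range of the other tissue for either gene. Both genes are also among those named below for having no overlap, so this is not a separate test of the labels. Pcp2 shares 182 of its 495 exon bases with Pet100.

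Expression differed between the tissues for 9809 of the 21643 genes, of which 4913 were higher in brain (22.7% of genes tested) and 4896 were higher in cerebellum (22.6%) at an adjusted p under 0.05 (edgeR quasi-likelihood test, Benjamini-Hochberg adjustment over all genes tested). A difference of at least 2-fold was called for 2067 genes higher in brain (9.55%) and 1853 genes higher in cerebellum (8.56%), where the test was against no difference and 2-fold is a limit on the estimate; a test against 2-fold itself (glmTreat) called 1227 and 796. The 6 brain and 6 cerebellum values did not overlap for 5269 genes (24.3%). The median log2 difference, brain minus cerebellum as throughout, was -0.04 over all genes tested.

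Calls were counted by gene class. Of protein-coding genes, 4005 (25.6%) were higher in brain and 3736 (23.9%) in cerebellum, with 1432 (9.15%) and 1129 (7.21%) at least 2-fold. Of lncRNAs, 669 (19.7%) were higher in brain and 704 (20.8%) in cerebellum, with 452 (13.3%) and 410 (12.1%) at least 2-fold. These shares were not tested against each other and varied with abundance: under 1 CPM (counts per 1000000) 29% of protein-coding genes and 27.0% of lncRNAs were called at least 2-fold, and between 10 and 100 CPM 11.5% and 22.9% were. Differences of at least 64-fold were called for 29 protein-coding genes and 16 lncRNAs higher in brain, and for 25 protein-coding genes and 5 lncRNAs higher in cerebellum.

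**Figure D1:**
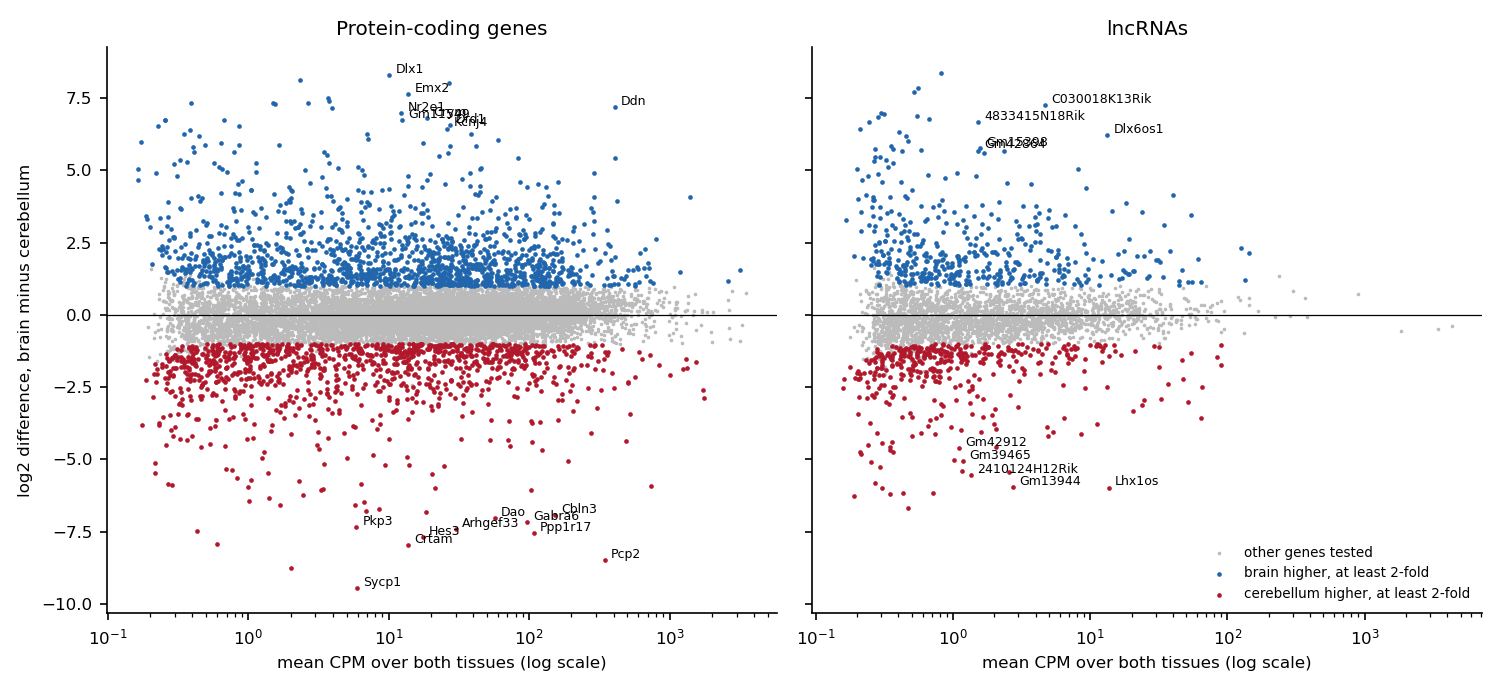
Log2 difference between brain and cerebellum (vertical axis, brain minus cerebellum) against the mean CPM over both tissues (horizontal axis, log scale) for every protein-coding gene (left) and lncRNA (right) tested. Blue and red points are called and at least 2-fold; names mark the genes with the largest differences among those with no overlap between the libraries and at least 10 CPM (lncRNAs 2 CPM) in the higher tissue, such as Pcp2 at -8.47 and Ddn at 7.18.

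The largest differences are given for protein-coding genes that were called without overlap between the libraries and had at least 10 CPM in the higher tissue, 10 in each direction. Those towards brain included transcription factors of forebrain development. Dlx1, a homeobox factor of forebrain inhibitory neurons, ranged from 3.52 to 8.15 FPKM in brain (median 6.68) and from 0 to 0.06 FPKM in cerebellum, a log2 difference of 8.30 ± 0.36 (SE; adjusted p = 6.57e-10). Emx2 differed by 7.64 ± 0.23. Nr2e1, an orphan nuclear receptor that maintains neural stem cells, lay at 4.75 to 8.76 FPKM in brain and did not exceed 0.302 FPKM in cerebellum. In all 3 of these factors female brain 1 was the lowest brain library. With cerebellum near 0 counts, 1 library decided part of the size: without male cerebellum 2 the log2 difference was 9.72 for Dlx1 and 8.84 instead of 6.97 for Nr2e1.

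Other genes among the 10 are used by mature forebrain neurons or have no role stated here. Ddn, which encodes the postsynaptic protein dendrin, lay at 174 to 313 FPKM in brain (median 208) against 0.357 to 5.15 FPKM in cerebellum (median 1.49), and differed 145-fold (log2 7.18 ± 0.35, adjusted p = 1.53e-09). Drd1, the D1 dopamine receptor, ranged from 5.16 to 19.6 FPKM in brain, with female brain 1 and female brain 3 below the other brain libraries, and reached 0.239 FPKM in cerebellum. Kcnj4, an inward rectifier potassium channel of forebrain neurons, lay at 13.6 to 38.4 FPKM against 0.0492 to 0.796 FPKM (log2 6.45 ± 0.30). Crym, a thyroid hormone binding protein, and the predicted gene Gm11549 differed by 6.81 ± 0.28 and 6.75 ± 0.28.

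Among the 10 protein-coding genes with the largest differences towards cerebellum, Pcp2 differed 355-fold (log2 -8.47 ± 0.34, adjusted p = 4.23e-10). Sycp1, a component of the synaptonemal complex that pairs chromosomes in meiosis, had 1758 counts over the 6 cerebellum libraries and 2 counts over the 6 brain libraries. The ratio of its levels was 978, with an exact 95% interval of 270 to 8080 that covers counting error only. Its level in cerebellum was 2.56 to 7.50 FPKM, and 4 of 6 brain libraries had no count. Testis held more of it, with a mean of 31.5 FPKM when all 29 count libraries were scaled together, against 4.44 FPKM in cerebellum on that scale.

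Of the other 8 genes, 3 are known from granule or Purkinje cells. Gabra6, the GABA-A receptor subunit of granule cells, ranged from 46.4 to 97.1 FPKM in cerebellum (median 80.8) and from 0.115 to 1.76 FPKM in brain (log2 -7.17 ± 0.40). Cbln3, a granule cell member of the cerebellins, lay at 42.3 to 81.6 FPKM against 0.0913 to 2.14 FPKM (log2 -6.92 ± 0.45). Ppp1r17, a phosphatase inhibitor of Purkinje cells and a substrate of cyclic GMP-dependent kinase, lay at 84.9 to 163 FPKM against 0.399 to 1.35 FPKM (log2 -7.56 ± 0.25). Each of these separated the tissues in all 12 libraries, as the rule for naming them required. The highest brain value of Gabra6, Cbln3 and Ppp1r17 was in female brain 1.

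The other 5 genes belong to several functions. Dao, the peroxisomal enzyme that degrades D-serine, lay at 37.7 to 76.3 FPKM in cerebellum and at 0.0948 to 0.381 FPKM in 5 brain libraries, with female brain 1 at 4.13 FPKM (log2 -7.02 ± 0.56). Hes3, a transcriptional repressor of the Hes family, differed by -7.67 ± 0.36 and Arhgef33, a guanine nucleotide exchange factor, by -7.42 ± 0.30. Crtam, an adhesion receptor first known from T cells, differed by -7.95 ± 0.35 and Pkp3, a plakophilin of desmosomes, by -7.33 ± 0.38. Neither was highest in cerebellum over the whole survey: Crtam had a mean of 30.0 FPKM in testis against 14.0 in cerebellum, and Pkp3 had 14.7 FPKM in colon against 3.67 in cerebellum. The log2 difference was -8.18 for Dao without female brain 1, -8.31 for Hes3 without male brain 2 and -8.12 for Pkp3 without male brain 1.

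**Figure D2:**
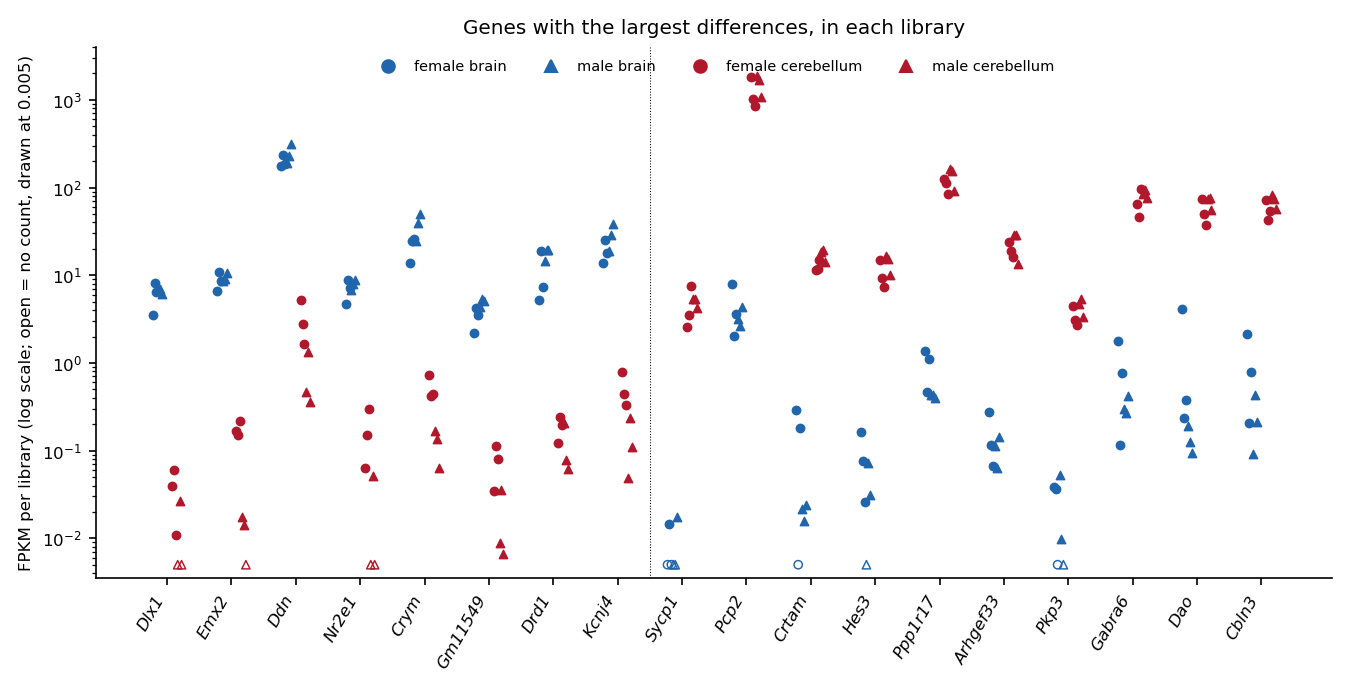
FPKM in each library (vertical axis, log scale) of 8 of the 10 protein-coding genes with the largest differences towards brain (left of the dotted line) and of the 10 towards cerebellum (right). Circles are female and triangles male libraries, blue is brain and red cerebellum, and open symbols at 0.005 had no count. For each gene all 6 libraries of the higher tissue lie above all 6 of the other, as the rule for naming them required.

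Promoters of 4 of these genes are shown because they differ in base composition and each gene had no overlap between the tissues. They are the 150 bases before the annotated start, on the strand of the gene, from RefSeq (assembly GRCm38.p6, which has the coordinates of mm10, the build of the count annotation). The RefSeq start is that of the deposited annotation for Kcnj4, Pcp2 and Gabra6, and lies 66 bases from it for Nr2e1. Capitals mark a cyclic AMP response element TGACGTCA in Nr2e1, and in Pcp2 a TATAAA read on the opposite strand. Nr2e1 lies at chr10:42583591-42583740 and Kcnj4 at chr15:79505242-79505391, both on the minus strand and both higher in brain. Pcp2 lies at chr8:3625283-3625432 and Gabra6 at chr11:42321073-42321222, both on the minus strand and both higher in cerebellum.
Nr2e1: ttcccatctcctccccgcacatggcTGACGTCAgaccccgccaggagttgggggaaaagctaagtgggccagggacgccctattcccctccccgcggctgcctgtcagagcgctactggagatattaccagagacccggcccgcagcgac
Kcnj4: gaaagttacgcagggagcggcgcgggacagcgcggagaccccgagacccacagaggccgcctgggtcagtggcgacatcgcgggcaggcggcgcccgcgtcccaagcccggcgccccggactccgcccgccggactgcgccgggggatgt
Pcp2: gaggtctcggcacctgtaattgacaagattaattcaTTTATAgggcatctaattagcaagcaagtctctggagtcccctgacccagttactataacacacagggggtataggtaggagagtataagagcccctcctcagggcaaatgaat
Gabra6: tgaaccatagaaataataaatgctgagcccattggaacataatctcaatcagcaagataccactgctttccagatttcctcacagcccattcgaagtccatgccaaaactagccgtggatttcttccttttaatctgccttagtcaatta

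Over the 250 bases before the start, GC content was 58.0% in Nr2e1 with 15 CpG dinucleotides and 77.2% in Kcnj4 with 35, whereas Pcp2 had 48.0% with 2 and Gabra6 had 40.8% with 2. The other named genes with a promoter entry were less clear. Towards brain, Dlx1, Emx2 and Drd1 had 68.0%, 67.2% and 60.8% with 22, 24 and 5. Towards cerebellum, Sycp1, Arhgef33, Dao and Cbln3 had 55.2%, 44.0%, 66.4% and 57.6% with 17, 2, 6 and 2. The remaining genes named by that rule had no entry. Over all genes the contrast between the tissues was small. The median was 59.2% GC and 11 CpG in 1045 protein-coding genes at least 2-fold higher in brain that had a promoter in the table. It was 57.2% and 9 in 804 genes at least 2-fold higher in cerebellum. All 11644 protein-coding genes tested with a promoter had 59.6% and 15. TATAAA on either strand was found in 9.86% of the brain promoters and 12.7% of the cerebellum promoters, against 6.95% of the genes tested and 12.4% of all 32851 promoters in the table. TGACGTCA was found in 2.30% and 0.995%, against 2.49% of the genes tested and 1.55% of all promoters. CAGATG, an E-box of the kind bound by NeuroD factors, was found in 12.6% and 13.1% against 10.5% and 14.4%, and AGGTCA, the core site of nuclear receptors such as ROR alpha, in 10.7% and 13.3% against 10.7% and 14.0%. Motifs were sought on both strands and counted separately where they overlapped. These are counts of letters, given without a test.

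Ranked by the difference in mean CPM, the leading genes higher in brain included Kif5a, Camk2a, Slc1a2 and Glul. Camk2a, the alpha subunit of CaM kinase II, lay at 405 to 692 FPKM in brain and 20.4 to 44.3 FPKM in cerebellum, a 16.7-fold difference (log2 4.06 ± 0.20, adjusted p = 1.89e-09). Kif5a, a kinesin motor of axonal transport, was more abundant and differed less, at 665 to 908 against 239 to 291 FPKM (log2 1.54 ± 0.10). Glul, the glutamine synthetase of astrocytes, and Slc1a2, their main glutamate transporter, differed by 0.77 ± 0.10 and 1.17 ± 0.10.

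The corresponding genes higher in cerebellum were Itpr1, Ttr, the locus that holds Aldoc, Fam107a and Sparcl1. Itpr1, the IP3 receptor through which Purkinje cells release stored calcium, lay at 280 to 639 FPKM in cerebellum and 53.2 to 98.0 FPKM in brain (log2 -2.60 ± 0.21, adjusted p = 1.74e-07). Fam107a, an actin-binding protein of astrocytes and radial glia, lay at 423 to 827 against 195 to 233 FPKM (log2 -1.62 ± 0.14), and Sparcl1, an astrocyte matrix protein, at 806 to 1110 against 488 to 637 FPKM (log2 -0.83 ± 0.10). Aldoc, an aldolase that marks stripes of Purkinje cells and also astrocytes, could not be separated from 7 neighbours in the annotation, and the joined locus differed by -0.91 ± 0.10. Ttr, the transthyretin of choroid plexus, was the one whose groups overlapped: it ranged from 16 to 1540 FPKM in brain and from 1020 to 3780 FPKM in cerebellum (log2 -2.88 ± 0.80, adjusted p = 0.00871), and differed by -3.93 without male brain 1.

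Lists of known cell type markers, here and below, were chosen with earlier results of these data known. Their match to the anatomy is therefore not a separate test. All 19 Purkinje cell genes were higher in cerebellum, with a median log2 difference of -3.42, and 18 of them had no overlap between the libraries. Counts of this and the later lists stand beside 25.6% of all protein-coding genes tested higher in brain and 23.9% in cerebellum. Of all genes tested, 24.3% had no overlap. Calb1, the calbindin of Purkinje cells, lay at 163 to 258 FPKM in cerebellum and 24.4 to 48.6 FPKM in brain, and Pvalb, parvalbumin, at 544 to 915 against 21.9 to 63.7 FPKM. Slc1a6, the Purkinje cell glutamate transporter, differed by -4.32 ± 0.21 and Rora, the nuclear receptor that Purkinje cells need to mature, by -1.38 ± 0.14. The smallest difference was that of Pcp4, a calmodulin regulator, at -0.68 ± 0.18 with overlapping groups.

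Of 16 granule cell genes, 14 were higher in cerebellum and 1 in brain, with a median of -2.37. Fat2, a giant cadherin of parallel fibres, lay at 12.8 to 37.9 FPKM in cerebellum against 0.340 to 1.74 FPKM in brain (log2 -5.05 ± 0.22), and the locus of Neurod1, a proneural factor, at 18.1 to 34.7 against 1.74 to 3.25 FPKM. The member higher in brain was Rbfox3, the antigen of NeuN antibodies, at 35.1 to 50 FPKM in brain and 18 to 25.9 FPKM in cerebellum (log2 0.90 ± 0.12). Gabrd, the GABA-A delta subunit, was not called (log2 0.27 ± 0.19, adjusted p = 0.28). The list therefore held 1 pan-neuronal gene that ran against the rest.

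Bergmann glia genes were higher in cerebellum for 5 of 6 (median -1.83): Gdf10, a growth factor of Bergmann glia, lay at 60.4 to 117 FPKM against 2.56 to 4.97 FPKM, a 25.7-fold difference, while Fabp7 was not called (log2 -0.20 ± 0.13, adjusted p = 0.234). Of 10 genes of other cerebellar interneurons, 6 were higher in cerebellum and 3 in brain, beside 23.9% and 25.6% of all protein-coding genes tested. Slc6a5, the neuronal glycine transporter of Golgi cells, lay at 2.29 to 8.83 FPKM in cerebellum, and in brain reached 2.43 FPKM in its highest library against a median of 0.083 FPKM (log2 -5.51 ± 0.79, and -6.78 without female brain 1). The 3 members higher in brain were Grm2, Sorcs3 and Ptprk, at 1.92, 0.60 and 0.58.

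Forebrain neuron genes moved the other way. Of 20 genes of cortical and hippocampal excitatory neurons, 18 were higher in brain and none in cerebellum (median 3.87). Tbr1, a T-box factor of deep cortical layers, lay at 12.7 to 26.5 FPKM against 0.145 to 0.769 FPKM, and Nrgn, the calmodulin-binding neurogranin, at 469 to 804 against 6.10 to 46.3 FPKM (log2 5.42 ± 0.31). Neurod2 and Prox1 were not called, at -0.26 ± 0.13 (adjusted p = 0.136) and -0.39 ± 0.22 (adjusted p = 0.17). All 14 forebrain interneuron genes were higher in brain (median 4.71), from Dlx1 down to Npy, a neuropeptide, at 0.73 ± 0.20, and Adarb2, an inactive RNA editing enzyme, at 0.35.

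Of 14 striatal projection neuron genes, 13 were higher in brain (median 4.22), and the remaining locus, which joins Foxp1 to neighbouring genes, was not called. Adora2a, the adenosine receptor of indirect pathway neurons, differed by 4.44 ± 0.33 and Penk, the enkephalin precursor, by 2.16 ± 0.25. Ppp1r1b, the dopamine-regulated phosphatase inhibitor DARPP-32, differed by 0.63 ± 0.20 with overlapping groups, at 103 to 277 against 83.8 to 147 FPKM. The summed striatal list ranged from 732 CPM in female brain 1 to 1890 CPM in male brain 3.

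Thalamic and hypothalamic genes were uneven between brain libraries. Of 15 tested, 8 were higher in brain and 1 in cerebellum, beside 25.6% and 23.9% of all protein-coding genes tested. A single gene had no overlap between the tissues, whereas 24.3% of all genes tested had none. Avp, the vasopressin precursor, ranged from 0.0642 to 34.8 FPKM in brain and had 3 counts over the 6 cerebellum libraries, a ratio of 232 with a counting interval of 79.0 to 1130. Oxt, the oxytocin precursor, ranged from 0.0711 to 18 FPKM and had 2 counts in cerebellum, a ratio of 230 with an interval of 63.2 to 1900. Female brain 3 decided much of both: without it the fitted log2 difference went from 8.11 to 5.86 for Avp and from 7.32 to 6.06 for Oxt, and without female cerebellum 3 it was 9.67 and 8.23. For Oxt it was 8.34 without male cerebellum 2. The summed list lay at 88.8 to 123 CPM in female brain 2, male brain 2 and male brain 3, and at 241 to 383 CPM in the other 3 brain libraries. The cause of this spread was not tested.

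**Figure D3:**
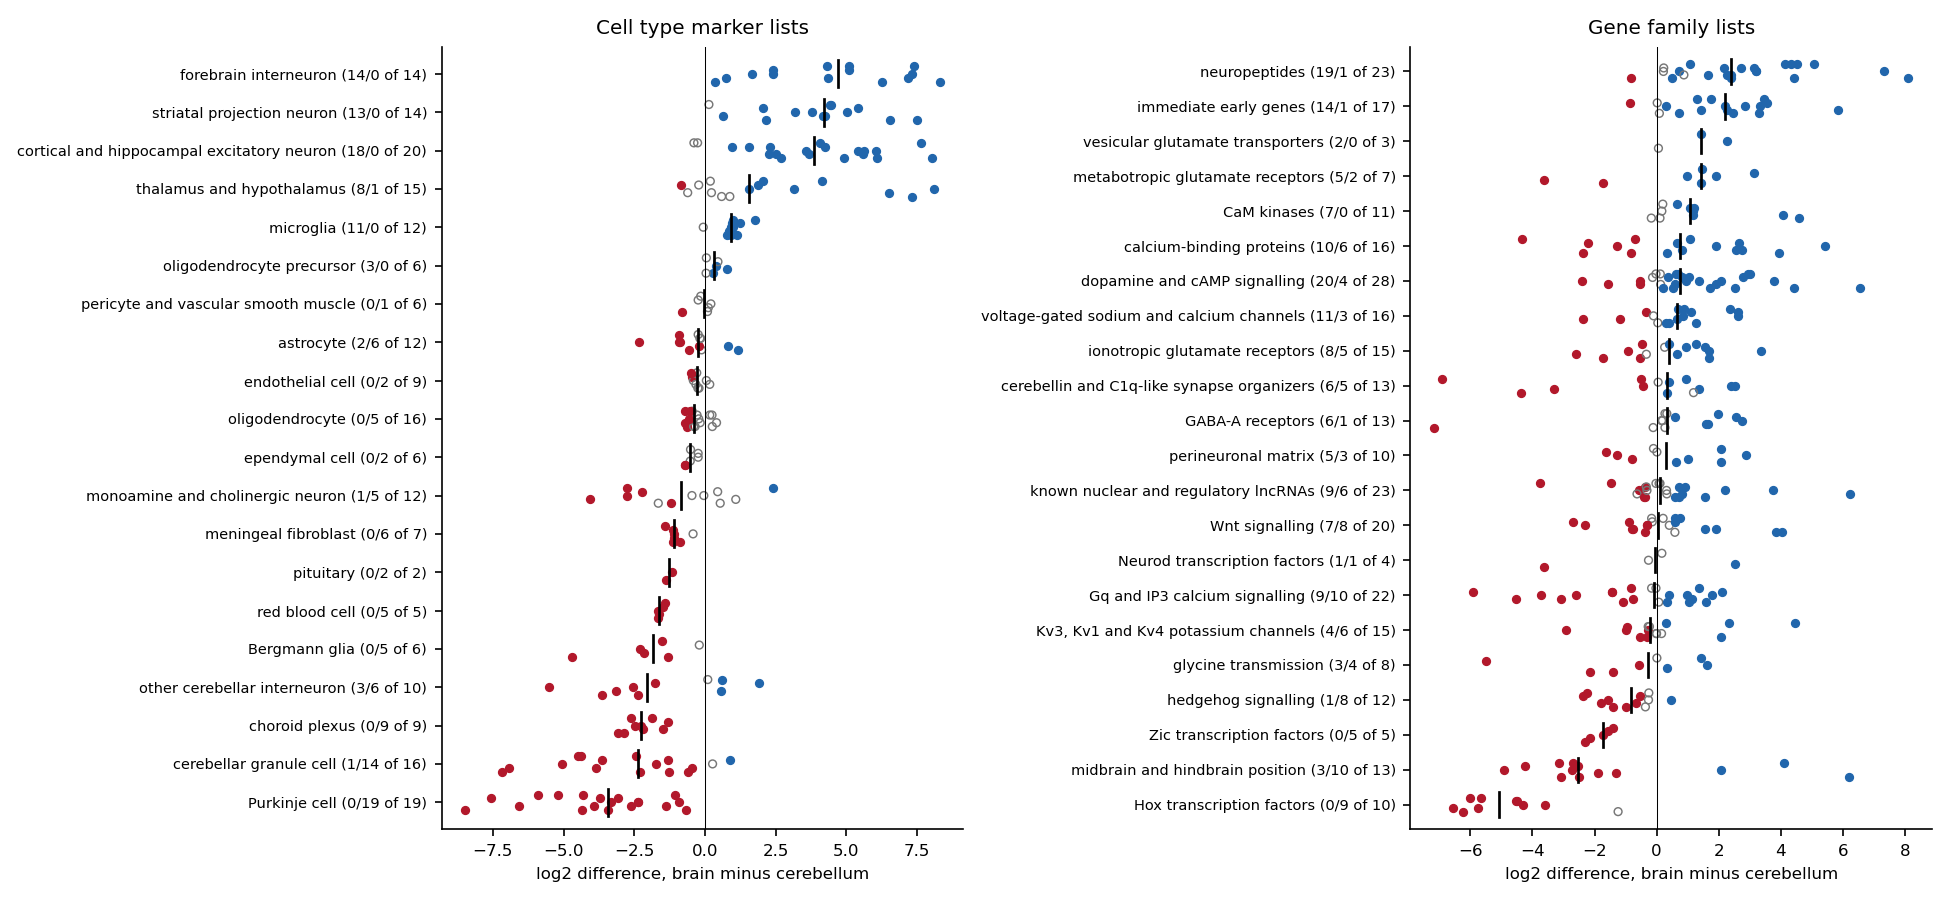
Log2 difference, brain minus cerebellum (horizontal axis), of every tested member of the cell type marker lists (left) and gene family and lncRNA lists (right). Blue and red points were called higher in brain and in cerebellum, open points were not called, black bars are list medians, and the numbers after each name count members higher in brain and in cerebellum; Purkinje cell genes have the lowest median of the cell types (-3.42) and forebrain interneuron genes the highest (4.71).

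Non-neuronal lists ranged in median from -2.27 (choroid plexus) to 0.94 (microglia). Of 12 microglia genes, 11 were higher in brain, all 11 without overlap between the libraries. P2ry12, the ADP receptor of resting microglia, lay at 13.5 to 24.7 FPKM in brain and 4.31 to 11.2 FPKM in cerebellum (log2 1.76 ± 0.21), and Csf1r, the receptor on which microglia depend, at 24.3 to 36.1 against 11.7 to 17.7 FPKM (log2 1.00 ± 0.13). The locus of Cx3cr1 is joined to Gorasp1 in the annotation and was not called (log2 -0.06). C1qa, a complement gene, differed by 0.85 ± 0.09.

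Astrocyte genes had no common direction: 2 of 12 were higher in brain and 6 in cerebellum. S100b, a calcium-binding protein, lay at 219 to 269 FPKM in cerebellum and 36.4 to 69.1 FPKM in brain (log2 -2.33 ± 0.13), Aqp4, the water channel of astrocyte endfeet, differed by -0.87 ± 0.11, and Slc1a2 went towards brain. Gfap was not called (log2 -0.12 ± 0.24, adjusted p = 0.699). Of 16 oligodendrocyte genes 5 were higher in cerebellum, beside 23.9% of all protein-coding genes tested, and none reached 2-fold. Without female brain 1, female cerebellum 2 and male cerebellum 3 (left out after the data were seen), 3 were higher in brain and 4 in cerebellum. Mag, a myelin glycoprotein, differed by -0.71 ± 0.20.

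Oligodendrocyte precursor genes were higher in brain for 3 of 6, beside 25.6% of all protein-coding genes tested, and for 1 of 6 with scaling by library size alone. Endothelial genes were higher in cerebellum for 2 of 9 and pericyte and vascular muscle genes for 1 of 6, no larger a share than that of all genes tested (22.6%). Neither endothelial call remained without female brain 1, female cerebellum 2 and male cerebellum 3, the library with the highest pituitary sum and the 2 with the highest Hox sums (left out after the data were seen). Meningeal fibroblast genes were higher in cerebellum for 6 of 7 (median -1.11), ependymal genes for 2 of 6, and all 5 red blood cell genes were higher in cerebellum (median -1.62). Hba-a1 and Hba-a2 are near-identical globin genes whose counts may be exchanged, and both had overlapping groups, as did Hbb-bs at 278 to 1350 FPKM in brain and 1240 to 2840 FPKM in cerebellum. Levels of meningeal and blood genes thus moved with the tissue, and their part in other differences was not tested.

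All 9 choroid plexus genes were higher in cerebellum (median -2.27), but 8 of them had overlapping groups. The summed list ranged from 1200 to 4410 CPM in cerebellum and from 54.7 to 1820 CPM in brain, where female brain 2, male brain 2 and male brain 3 lay at 54.7 to 82.2 CPM and the other 3 at 563 to 1820 CPM. Those 3 low libraries were also the 3 with the lowest sums of thalamic and hypothalamic genes. Folr1, a folate receptor, ranged from 0.620 to 13.3 FPKM in brain and from 9.95 to 32.9 FPKM in cerebellum.

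Of genes that mark position along the neural tube, most of them transcription factors, 7 of 13 midbrain and hindbrain genes tested had no overlap between the tissues. Over all genes tested 24.3% had none. Otx2 is in both this list and the choroid plexus list. En2, which patterns the midbrain and cerebellum, lay at 5.75 to 9.66 FPKM in cerebellum and 0.0709 to 0.723 FPKM in brain (log2 -4.92 ± 0.38, and -5.70 without female brain 1), and Otx1, a factor of forebrain and midbrain, at 2.12 to 3.41 FPKM in brain against at most 0.255 FPKM in cerebellum (log2 4.11 ± 0.36). Of the 13, 10 were higher in cerebellum and 3 in brain, beside 23.9% and 25.6% of all protein-coding genes tested. The summed level of the list was 94.9 to 105 CPM in cerebellum and 12.1 to 74.8 CPM in brain. All 5 Zic factors were higher in cerebellum without overlap, led by Zic1 at 30.4 to 55.6 against 5.35 to 11.5 FPKM (log2 -2.31 ± 0.22).

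Hox genes, homeobox factors which pattern the hindbrain behind the cerebellum and the spinal cord, were higher in cerebellum for 9 of the 10 tested of 16 annotated features. None of the 9 had groups free of overlap, and 5 were called without female brain 1, female cerebellum 2 and male cerebellum 3. Their summed level was 96.4 CPM in female cerebellum 2 and 45.2 CPM in male cerebellum 3, between 11.7 and 18.8 CPM in female cerebellum 3 and female cerebellum 1, and 1.98 and 1.11 CPM in male cerebellum 2 and male cerebellum 1, against 0.131 to 6.64 CPM in brain. Hoxb5 reached 8.15 FPKM in its highest cerebellum library, with a median of 0.917 and a lowest value of 0.0151 FPKM (log2 -6.02 ± 1.39), and without male cerebellum 3 it was not called (log2 -3.17). Its log2 difference was -5.08 without female cerebellum 2 and -6.92 without male brain 1. The 4 cerebellum libraries with the higher Hox sums also had the higher sums of monoamine and cholinergic neuron genes, at 75.3 to 102 CPM, while male cerebellum 1 and male cerebellum 2 had 28.9 and 26.5 CPM, and the 2 latter libraries had the highest Purkinje, granule and Bergmann sums. Of 12 monoamine and cholinergic genes, 5 were higher in cerebellum and 1 in brain (3 in brain without the same 3 libraries), beside 23.9% and 25.6% of all protein-coding genes tested. Those higher in cerebellum included Dbh, the enzyme that makes noradrenaline, at 0.298 to 5.81 FPKM against 0.162 to 2.86 FPKM (log2 -2.22 ± 0.62, and -3.31 without female brain 1). Slc6a3, the dopamine transporter, was higher in brain (log2 2.42 ± 0.72), but not without male brain 1 (log2 1.93, adjusted p = 0.0561 by edgeR), and at 3.31 without male cerebellum 2.

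Female brain 1 stood apart among the brain libraries. It had the highest Hox sum (6.64 CPM), monoamine sum (94.7 CPM) and oligodendrocyte sum (9700 CPM) of the 6, the lowest forebrain interneuron and cortical sums, and 28.7 CPM of pituitary genes against 1.05 to 2.54 CPM in the others. Growth hormone (Gh) reached 12.8 FPKM and prolactin (Prl) 10.3 FPKM in that library, with brain medians of 0.0642 and 0.0243 FPKM, and neither gene passed the filter. Without female brain 1, female cerebellum 2 and male cerebellum 3, Purkinje, granule, Bergmann, choroid plexus, microglia and Zic genes were called in the same numbers, and the median of the Purkinje list was -3.59. In that smaller fit, chosen after the values were seen, 5 of 8 Hox genes, 10 thalamic and hypothalamic genes of 16 (all higher in brain), and 3 monoamine genes higher in brain with 5 higher in cerebellum were called, as were 3 oligodendrocyte genes higher in brain and 4 in cerebellum.

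**Figure D4:**
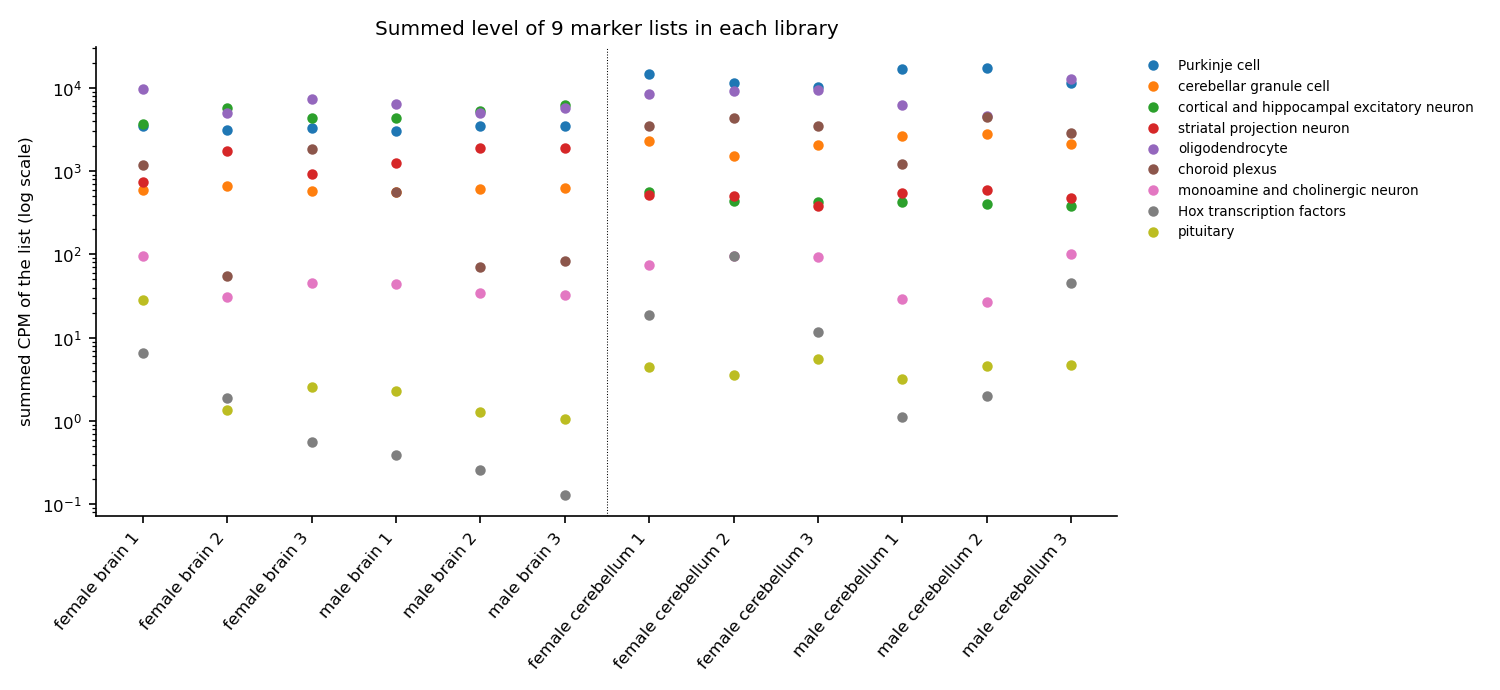
Summed CPM of 9 gene lists (vertical axis, log scale) in each of the 12 libraries, brain left and cerebellum right of the dotted line. Hox genes range from 1.11 to 96.4 CPM among cerebellum libraries and choroid plexus genes from 54.7 to 1820 CPM among brain libraries, whereas Purkinje cell and cortical neuron genes keep the tissues apart in every library.

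Several gene families had members higher in brain and members higher in cerebellum. With 25.6% of all protein-coding genes tested called higher in brain and 23.9% in cerebellum, this is given as a description and not as a property of families. Of 7 metabotropic glutamate receptors, 5 were higher in brain and 2 in cerebellum, and 6 had no overlap. Grm5, the Gq-coupled receptor of forebrain neurons, lay at 18.1 to 30.4 FPKM in brain and 1.21 to 5.92 FPKM in cerebellum (log2 3.14 ± 0.24). Grm4, the presynaptic receptor of parallel fibres, differed 12.3-fold, at 31.0 to 70 against 3.25 to 5.21 FPKM (log2 -3.62 ± 0.18), and Grm3 and Grm2, both Gi-coupled, went towards brain at 1.45 ± 0.11 and 1.92 ± 0.14.

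Downstream of Gq, 9 of 22 genes were higher in brain and 10 in cerebellum. The G protein alpha subunit itself, Gnaq, was not called, at 32.3 to 38.1 FPKM in brain and 30.9 to 35.8 FPKM in cerebellum (log2 0.07 ± 0.07, adjusted p = 0.414). Of the phospholipases that it activates, Plcb1 was higher in brain (log2 1.37 ± 0.15), and Plcb3 and Plcb4 in cerebellum (-1.44 ± 0.12 and -1.07 ± 0.16). Of the Homer scaffolds that tie the receptors to calcium stores, Homer1 and Homer2 were higher in brain (2.12 ± 0.14 and 1.58 ± 0.11), and Homer3 lay at 32.8 to 64.0 FPKM in cerebellum against 2.99 to 4.43 FPKM in brain (-3.71 ± 0.16). Homer3 shares 874 of 4677 exon bases with Ddx49.

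Of the conventional protein kinases C, Prkca and Prkcb were higher in brain (1.05 ± 0.09 and 1.79 ± 0.11). Car8, a carbonic anhydrase relative that binds the IP3 receptor, differed 60.2-fold at 192 to 326 against 2.94 to 5.61 FPKM (-5.91 ± 0.19). Atp2a3, one of the pumps that refill calcium stores, differed by -4.53 ± 0.21, whereas the more abundant Atp2a2 lay at 94.8 to 117 FPKM in brain and 95 to 138 FPKM in cerebellum and was not called (-0.02 ± 0.09, adjusted p = 0.883).

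Cerebellins are secreted proteins that bridge presynaptic neurexins and postsynaptic delta receptors. Cbln1, released from parallel fibres, lay at 40.9 to 81.4 FPKM in cerebellum and 0.991 to 6.98 FPKM in brain (log2 -4.38 ± 0.39), close to the level of Cbln3. Cbln2 lay at 7.19 to 11.8 FPKM in brain and 0.267 to 4.74 FPKM in cerebellum (2.39 ± 0.35), and Cbln4 was higher in brain with overlapping groups (1.38 ± 0.39, and 2.10 without male cerebellum 3). Of the delta receptors, Grid1 was higher in brain (0.94 ± 0.08). Nrxn2 was called higher in brain at 0.35 (a call lost when any of 7 single libraries was left out) and Nrxn3 higher in cerebellum at -0.43, both under 2-fold.

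Ionotropic glutamate receptors were higher in brain for 8 of 15 and in cerebellum for 5. Among AMPA receptor subunits, Gria2 and Gria3 were higher in brain (log2 1.69 ± 0.16 and 1.28 ± 0.14), and Gria1, at 140 to 257 against 55.6 to 67.5 FPKM, and Gria4, at 52.1 to 81.2 against 9.54 to 12.5 FPKM, were higher in cerebellum (-1.72 ± 0.16 and -2.60 ± 0.12). Gria2 is the subunit that keeps calcium out of AMPA receptors. Among NMDA receptor subunits, Grin2b lay at 16.9 to 26.0 FPKM in brain and 1.56 to 2.46 FPKM in cerebellum, a 10.2-fold difference (3.36 ± 0.10), Grin2a differed by 1.69 ± 0.09, and Grin2c, the subunit of mature granule cells, by -0.47 ± 0.15 with overlapping groups.

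Of 13 GABA-A receptor subunits, 6 were higher in brain and Gabra6 alone in cerebellum. Gabra5, of hippocampal extrasynaptic receptors, lay at 15.1 to 20.3 FPKM in brain and 0.692 to 4.86 FPKM in cerebellum (log2 2.57 ± 0.33, and 3.26 without male cerebellum 3), and Gabra3 and Gabra4 differed by 1.97 ± 0.19 and 1.66 ± 0.13. Glycine transmission was higher in brain for 3 of 8 genes and in cerebellum for 4, among them the receptor subunit Glra1 at -2.13 ± 0.55 with overlapping groups (-1.40 without male cerebellum 3). Of the vesicular glutamate transporters, Slc17a7 lay at 123 to 219 FPKM in brain and 25.2 to 45.5 FPKM in cerebellum (2.27 ± 0.16), and Slc17a6 was not called (0.06 ± 0.40, adjusted p = 0.921).

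Calcium-binding proteins were higher in brain for 10 of 16 and in cerebellum for the other 6. Within the hippocalcin family of calcium sensors, Hpca and Hpcal4 lay at 189 to 306 and 113 to 216 FPKM in brain against 38.8 to 49.4 and 8.41 to 13.7 FPKM in cerebellum (log2 2.55 ± 0.12 and 3.94 ± 0.14). Hpcal1 lay at 69.5 to 130 FPKM in cerebellum against 18.6 to 28.9 FPKM (-2.21 ± 0.14). Calmodulin-dependent phosphodiesterases split in the same way, with Pde1a and Pde1b at 2.80 ± 0.13 and 2.54 ± 0.20 and Pde1c at -2.41 ± 0.14; Pde1b shares 1808 of its 3678 exon bases with another annotated gene. CaM kinases were higher in brain for 7 of 11 and in cerebellum for none, with Camk4, which granule cells also use, not called (0.20 ± 0.19, adjusted p = 0.416).

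Among ion channels, the Kv3 channel gene Kcnc1, used by fast-spiking neurons, was higher in cerebellum (log2 -0.96 ± 0.11) and Kcnc2 in brain (2.09 ± 0.22). The Kv4 partners Kcnip2 and Kcnip1 differed by 4.47 ± 0.19 and -1.0 ± 0.15. Of 15 potassium channel genes 4 were higher in brain and 6 in cerebellum. Of 16 sodium and calcium channel genes 11 were higher in brain and 3 in cerebellum, the latter including Cacna1g, the T-type channel of Purkinje cells (-2.36 ± 0.18), and Cacna1a, their P-type channel (-1.18 ± 0.15).

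**Figure D5:**
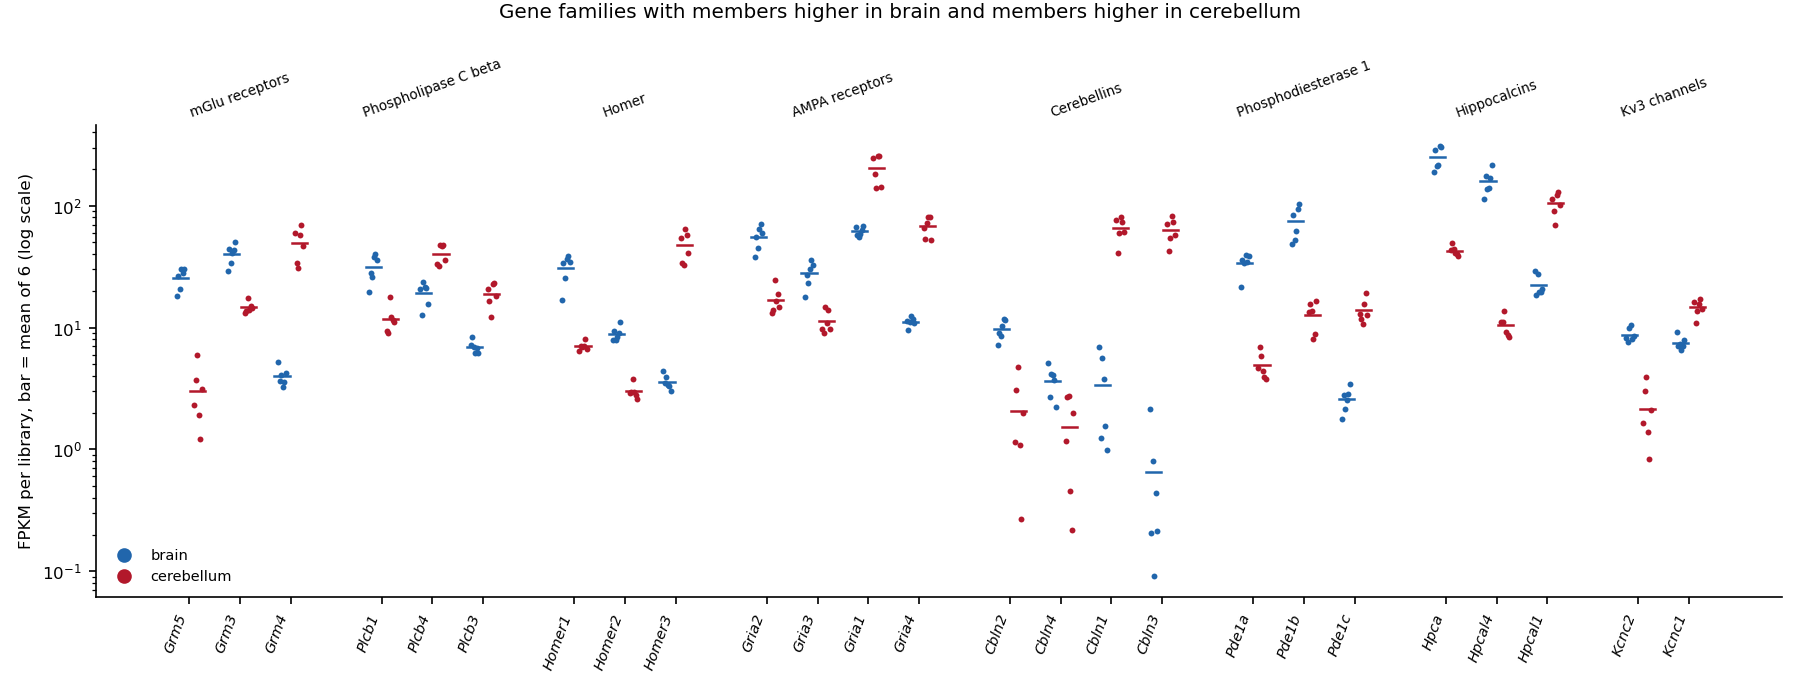
FPKM of members of 8 gene families in each brain (blue) and cerebellum (red) library (vertical axis, log scale), with bars at the mean of 6 libraries. The families were chosen for this: in each at least 1 member is higher in brain and at least 1 in cerebellum, as with Grm5 (18.1 to 30.4 against 1.21 to 5.92 FPKM) and Grm4 (3.25 to 5.21 against 31.0 to 70 FPKM).

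Dopamine and cyclic AMP signalling was higher in brain for 20 of 28 genes and in cerebellum for 4 (median 0.75). Adcy5, the adenylyl cyclase of the striatum, lay at 25.3 to 57.9 against 9.30 to 13.5 FPKM (log2 1.72 ± 0.17) and Drd2, the D2 receptor, at 5.91 to 17.2 against 0.132 to 1.31 FPKM (3.77 ± 0.34), while Adcy1 was higher in cerebellum (-0.54 ± 0.12). Neuropeptide genes were higher in brain for 19 of 23 and in cerebellum for 1, Agrp, a hypothalamic peptide, at -0.84 ± 0.33 (adjusted p = 0.0497), a call that was lost when any of 9 single libraries was left out. Sst, somatostatin, lay at 99.9 to 139 against 3.83 to 46.2 FPKM (log2 2.39 ± 0.38, and 3.03 without male cerebellum 3), and Cck, cholecystokinin, at 204 to 298 against 34.8 to 71.2 FPKM.

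Immediate early genes, which neurons switch on within minutes of activity, were higher in brain for 14 of 17 (median 2.19). Egr3 lay at 11.5 to 25.1 FPKM in brain and 0.107 to 0.704 FPKM in cerebellum, a 58.0-fold difference (log2 5.86 ± 0.24), Egr1 at 44.7 to 72.9 against 4.34 to 6.99 FPKM (3.33 ± 0.13), and Arc at 15.4 to 36.9 against 2.97 to 5.34 FPKM (2.45 ± 0.18). Fos differed less, by 0.71 ± 0.17 with overlapping groups, and Ier2 was higher in cerebellum (-0.85 ± 0.14). Jun and Dusp1 were not called, at 0.02 and 0.09.

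Hedgehog signalling was higher in cerebellum for 8 of 12 genes and in brain for 1 (median -0.82). Gli1, the transcriptional target that reads the pathway out, lay at 4.01 to 6.42 FPKM in cerebellum and 0.673 to 1.64 FPKM in brain (log2 -2.37 ± 0.17), the receptor Ptch1, also a target, at 22.6 to 30.8 against 6.91 to 11.1 FPKM (-1.57 ± 0.11), and the ligand Shh at 0.954 to 1.52 against 0.456 to 0.842 FPKM (-0.97 ± 0.19). Wnt signalling had 7 of 20 genes higher in brain and 8 in cerebellum, beside 25.6% and 23.9% of all protein-coding genes tested. Perineuronal matrix genes were higher in brain for 5 of 10, led by Ncan, neurocan, at 27.2 to 38.7 against 2.69 to 6.05 FPKM (2.87 ± 0.18), and in cerebellum for 3, among them Hapln4, the link protein of cerebellar nets (-0.78 ± 0.13). Of 4 Neurod factors, Neurod6 was higher in brain (2.52 ± 0.16) and the Neurod1 locus in cerebellum (-3.63 ± 0.17).

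Among lncRNAs that were called without overlap between the libraries and had at least 2 CPM in the higher tissue, the 5 largest differences towards brain were those of C030018K13Rik (log2 7.27 ± 0.28), 4833415N18Rik (6.68 ± 0.47), Dlx6os1 (6.22 ± 0.41), Gm15398 (5.79 ± 0.49) and Gm42864 (5.69 ± 0.58). Dlx6os1, also known as Evf2, lay at 2.79 to 8.43 FPKM in brain and 0 to 0.226 FPKM in cerebellum, and C030018K13Rik at 1.90 to 3.64 against 0 to 0.0459 FPKM. By the same rule the 5 towards cerebellum were Lhx1os (-5.97 ± 0.41), Gm13944 (-5.95 ± 0.31), 2410124H12Rik (-5.55 ± 0.34), Gm39465 (-5.05 ± 0.49) and Gm42912 (-4.61 ± 0.45). Larger differences of lncRNAs below that abundance or with overlapping groups are counted above and not named. The order of the 10 is not firm, since 1 library moved several values: without male cerebellum 2 the log2 difference was 7.69 for Dlx6os1 and 6.80 for Gm15398, without female cerebellum 2 it was 7.60 for 4833415N18Rik, without female cerebellum 1 and male cerebellum 3 in turn it was 7.61 and 7.36 for Gm42864, and without female brain 1 and male brain 1 in turn it was -6.56 and -6.67 for Lhx1os. Lhx1os was the most abundant of these, at 24.5 to 50.9 FPKM in cerebellum and 0 to 2.30 FPKM in brain.

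The direction of lncRNAs was set beside that of the nearest protein-coding gene. Lhx1os lies 139 bases from Lhx1, a LIM homeobox factor of Purkinje cells (chr11:84525660-84535831 for the lncRNA, mm10), and both were higher in cerebellum (log2 -5.97 and -5.18). Emx2os lies 107 bases from Emx2 on the other strand (chr19:59427765-59458265), and both were higher in brain (5.67 and 7.64). Dlx6os1 overlaps the span of Dlx6 (6.22 and 7.17), Six3os1 that of Six3 (3.76 and 4.25) and Gm2694 that of Cbln1 (-3.76 and -4.38), each on the other strand, and since no source used here says whether strand was used in counting, counts in the shared stretches cannot be assigned to 1 strand. Leaving out 1 library gave 8.61 for Dlx6 (male cerebellum 1), 5.00 and 4.88 for Six3 (female cerebellum 3 and male cerebellum 1) and 4.64 for Six3os1 (female cerebellum 3).

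The nearest protein-coding gene was called higher in brain for 314 of the 452 lncRNAs at least 2-fold higher in brain (69.5%), and called higher in cerebellum for 239 of the 410 lncRNAs at least 2-fold higher in cerebellum (58.3%). Over all 3392 lncRNAs tested, the neighbour was higher in brain for 29.5% and in cerebellum for 26.2%. The shares were 90.3% and 71.1% where the spans overlapped, 64.0% and 58.4% at a gap of up to 10 kb, and 48.2% and 31.5% beyond 10 kb, against 33.8% and 23.5% of all lncRNAs beyond 10 kb. These are descriptions without a test, because neighbouring loci share reads and annotation.

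Among the 10 lncRNAs named for their size, C030018K13Rik, 4833415N18Rik, Gm39465, Gm13944 and Gm42912 did not share the neighbour's call. The neighbour was called in the other direction for C030018K13Rik (Tbc1d1, 126 kb away, log2 -0.56) and Gm39465 (Pomgnt2, 23.5 kb away, 0.44). It was not called for 4833415N18Rik (Cpped1, 0.15), Gm13944 (Zfp385b, whose span it overlaps, -0.14) and Gm42912 (Dck, 0.12). Among 23 well-known lncRNAs tested, 9 were higher in brain and 6 in cerebellum, beside 19.7% and 20.8% of all lncRNAs tested. Malat1, the most counted of them, lay at 456 to 625 FPKM in brain and 554 to 865 FPKM in cerebellum (-0.37 ± 0.13, adjusted p = 0.0282), a call lost when any of 6 single libraries was left out, Rian, from the imprinted Dlk1-Dio3 region, at 120 against 63.7 FPKM at the median (0.82 ± 0.14), and Meg3 of the same region was not called (0.11 ± 0.12, adjusted p = 0.519).

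Of 686 pseudogenes tested, 64 were higher in brain (9.33%) and 112 in cerebellum (16.3%), both below the shares over all genes tested (22.7% and 22.6%). Among those with at least 2 CPM in the higher tissue, the largest differences towards brain were those of 1700086L19Rik (log2 4.37 ± 0.24), Gm34583 (3.42 ± 0.39, and 4.10 without male cerebellum 3) and Gm11892 (2.95 ± 0.43), and towards cerebellum Gm14413 (-2.75 ± 0.23), Alms1-ps2 (-2.37 ± 0.24) and Gm14402 (-2.30 ± 0.23). Reads of a pseudogene and of its parent gene may be exchanged, so these values are uncertain. Of 130 long-read loci outside the mitochondrial genome that matched no reference gene, 21 were higher in brain (16.2%) and 38 in cerebellum (29.2%).

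Set beside heart, colon, ovary and testis in a scaling of all 29 count libraries, 65.9% of the 2067 genes at least 2-fold higher in brain had their highest mean in brain and 14.8% in testis. Of the 1853 genes at least 2-fold higher in cerebellum, 49.0% had their highest mean in cerebellum, 15.2% in testis and 15.0% in colon. Over all genes tested the highest mean was in brain for 21.1%, in cerebellum for 13.4%, in testis for 23.4% and in colon for 15.2%. Emx2 was among those highest elsewhere, with a mean of 14.0 FPKM in ovary against 8.96 FPKM in brain. Dlx1, Pcp2 and Gabra6 had means of at most 1.68 FPKM in each of these other 4 tissues.

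Within each sex the tissues were separated as well. In females 4972 genes were called (23.0% of genes tested) and in males 8249 (38.1%); 4454 were called in both, which was 89.6% of the female and 54.0% of the male calls, and all 4454 had the same direction. Of the 3920 genes at least 2-fold over both sexes, 3915 had the same sign in each sex, and the 5 others were Tnfrsf4, Ren1, Mir328, Gm10723 and Gm47342. The genes called with the smallest adjusted p in females were Emx2, Ctxn1 and Grin2b towards brain and Car8, Ppp1r17 and Mybpc1 towards cerebellum, and in males Emx2, Akap5 and Grin2b, and Ppp1r17, Car8 and Nrk. Ctxn1, a membrane protein of cortical neurons, differed by 4.16 in females and 4.72 in males, and Akap5, a postsynaptic kinase anchor, by 2.85 and 4.13.

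The female difference was smaller for 83.5% of those 3920 genes, with a median ratio of female to male log2 difference of 0.75. Emx2 differed by 5.59 in females and 9.69 in males, Crtam by -6.33 and -9.58, and Dao by -5.10 and -8.93. Emx2 was near 0 in cerebellum, where a few counts decide the size of a log2 difference. Dao in brain was at 4.13 FPKM in female brain 1 and at 0.0948 to 0.381 FPKM in the other brain libraries. These sizes are therefore uncertain. The standard errors were alike, with medians of 0.214 and 0.215. The test of the difference between the sexes called 0 of 21643 genes (0.0%) with edgeR, with 1620 at an unadjusted p under 0.05, and DESeq2 called 35 with 1762 at an unadjusted p under 0.05. Female brain 1 held Hox, monoamine neuron and pituitary transcripts above those of the other brain libraries, and the female cerebellum libraries had Hox sums of 11.7 to 96.4 CPM against 1.11, 1.98 and 45.2 CPM in males. Their part in the smaller female difference was not tested. Without female brain 1 the median ratio was 0.80, and over the leaving out of each library it ran from 0.707 to 0.80.

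The make-up of the libraries by gene class differed little. Mitochondrially encoded genes took 3.28 ± 0.59% of counts in brain and 3.18 ± 1.0% in cerebellum (SD, n = 6; exact permutation test over all splits of 6 against 6, two-sided, p = 0.861, adjusted p = 0.861). LncRNAs took 2.85 ± 0.076% and 3.07 ± 0.24% (exact p = 0.0346, adjusted p = 0.0519) and protein-coding genes 86.8 ± 0.93% and 84.7 ± 1.5% (exact p = 0.0195, adjusted p = 0.0519), with adjustment over the 3 shares. With the 10 most counted genes left out, the difference in lncRNA share went from -0.219 to -0.0119 percentage points (exact permutation, adjusted p = 0.918) and that in protein-coding share from 2.03 to 0.306 (adjusted p = 0.0519). Leaving out 1 library moved the adjusted p of these shares between 0.0195 and 0.117. The small nuclear RNA Rn7sk alone took 3.61 to 9.70% of counts.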

How the data were processed

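Counts of 55356 features in 12 RNA-seq libraries (adult C57BL/6J brain and cerebellum, 3 per tissue and sex) were used as the authors deposited them. Per the submitters' processing notes the authors used FastQC 0.11.8, MultiQC 0.9, HISAT2 2.0.5 and featureCounts 1.6.3 with build mm10; whether strand was used in counting is not given in the sources used here. The counted annotation joined long-read loci with reference genes: among the genes tested, 531 loci joined several genes, 429 split one, 131 (1 of them mitochondrial) matched none, and 6306 (29.1%) shared exon bases with another gene on either strand. No column of per-sample values was left unmapped (0 unused).

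Genes were filtered with filterByExpr by the 4 tissue-and-sex groups, scaled by TMM and tested with edgeR 4.0.16 (R 4.3.3, limma 3.58.1) by the quasi-likelihood test on the mean of both sexes, with Benjamini-Hochberg adjustment over the 21643 genes tested and calls at an adjusted p under 0.05. The fits were tested on simulated data. FPKM are counts per 1000000 of the TMM-scaled library and per kilobase of exon of the deposited annotation. Shares of counts were compared by exact permutation, with a smallest possible p of 0.00216. Intervals and floors cover counting error only. The genes, lists, families and motifs were chosen with earlier results of these data known. Named were, per direction, the 10 protein-coding genes (mean of at least 10 CPM in the higher tissue) and 5 lncRNAs (at least 2 CPM) with the largest called difference and no overlap, the 5 with the largest difference in CPM, the 3 with the smallest adjusted p in each sex, 3 pseudogenes, and members of 42 lists. The alternatives were DESeq2 1.42.0, other scalings, filters and blocks, glmTreat, all 29 count libraries in 1 fit, and leaving libraries out. Replicates differed from each other by more than counting noise in every pair. Deviations of samples with the same number correlated from 0.040 to 0.14 in females and from -0.041 to 0.044 in males. The other female pairs lay lower, from -0.107 to 0.039. The labels do not say whether the numbers pair samples, so libraries were taken as independent and no block was used. Some genes are not reported here.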

Additional observations from a re-analysis of the deposited data

Results flagged for a closer look

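Of 182 groups of 6 libraries tested, 12 had a highest or lowest library far from the rest by Dixon's test, where chance gives about 1 in 20 groups, and in 9 of the 12 that library was female brain 1. Among brain libraries, female brain 1 had 28.7 CPM of pituitary genes (1.05 to 2.54 in the others), 94.7 CPM of monoamine and cholinergic neuron genes (31.0 to 45.1) and 6.64 CPM of Hox genes (0.131 to 1.90). It also had the highest brain values of Dao (4.13 FPKM, 0.0948 to 0.381 in the others), Cbln3 (2.14 FPKM, 0.0913 to 0.795), Lhx1os (2.30 FPKM, 0 to 0.788), Arhgef33 (0.276 FPKM, 0.063 to 0.142) and Sparcl1 (637 FPKM, 488 to 542), and the lowest of C030018K13Rik (1.90 FPKM, 3.03 to 3.64).

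The other 3 values lay in other libraries. Male brain 2 had 0.165 FPKM of 2410124H12Rik (0.0508 to 0.0618 in the other brain libraries). Female cerebellum 3 had 5.17% of its counts on mitochondrially encoded genes (2.46 to 3.25% in the other cerebellum libraries), and female cerebellum 1 had 555 CPM of cortical and hippocampal neuron genes (376 to 443).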

How the results depend on the processing

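The counts of genes higher in brain and in cerebellum changed by less than 1.5 times under DESeq2, other scalings, filters and denominators and with any 1 library left out, with these exceptions. With all 29 count libraries in 1 fit, 3232 genes were higher in cerebellum and 3050 were called in females. A test against a 2-fold difference (glmTreat) called 1227 genes higher in brain and 796 in cerebellum. Blocking by the first digit of the library code, which also dropped female brain 2 and so used 11 libraries, left 3273 calls in females, against 3639 without that library and with no block, and the interaction of sex and tissue had 35 calls with DESeq2 and 354 with no filter on low counts. Leaving out 1 library in turn gave 0 to 28 interaction calls, 28 without male cerebellum 3.

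Leaving out 1 library moved the difference in mitochondrial share from -0.0635 to 0.493 percentage points, in lncRNA share from -0.261 to -0.132 and in protein-coding share from 1.68 to 2.42. Without the 10 most counted genes the differences were -0.0123, -0.0119 and 0.306. With the replicate number as a block, 9966 genes were called against 9809. The labels do not say whether the numbers pair the samples.

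Of 3788 values of 167 named genes under the alternatives, 3707 kept direction and call, 53 lost the call, 6 gained one and 22 changed sign, the last in genes that were not called. Without 1 library in turn, log2 differences ran from -0.27 to 0.19 for Gfap, -0.06 to 0.05 for Atp2a2, -0.22 to 0.37 for Slc17a6, -0.05 to 0.10 for Jun, -0.01 to 0.20 for Dusp1 and -0.01 to 0.16 for Meg3. Gfap was 0.19 without female brain 1, female cerebellum 2 and male cerebellum 3 (chosen after seeing the data), Atp2a2 0.06 in the fit of 29, Jun -0.03 and Dusp1 -0.03 with the code block, and Slc17a6 -0.01 and Jun -0.04 with library size alone. The causes were not tested. In simulated counts of 21643 genes, 100 were changed 2-fold and 100 were changed 4-fold, and 65% and 91% of these were recovered. In the data 9809 genes were called, which sets a less strict limit on the unadjusted p. The simulated shares therefore do not give the power of the reported fit.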

Other observations

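Of 543 protein-coding genes of the X chromosome tested, 197 (36.3%) were higher in brain and 85 (15.7%) in cerebellum, against 25.2% and 24.2% of 15111 autosomal genes; the difference was not tested. In females 92 were higher in brain and 48 in cerebellum, against 2232 and 1684 autosomal genes, and in males 179 and 69, against 3302 and 3070. Genes at least 2-fold higher in brain spanned a median of 26.9 kb, and 11.1% of them spanned at least 200 kb, against 19.7 kb and 5.67% for genes higher in cerebellum and 21.1 kb and 4.47% for all protein-coding genes tested.

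Other families were chosen after their values were seen, and their counts stand beside 25.6% of all protein-coding genes tested higher in brain and 23.9% in cerebellum. Of 90 ribosomal protein genes, 57 were higher in brain and 3 in cerebellum (median log2 difference 0.32), and with scaling by library size alone the counts were 39 and 5. Of 23 V-ATPase subunits, which acidify vesicles, 14 were higher in brain and 4 in cerebellum. Of 43 collagens, 4 were higher in brain and 18 in cerebellum, and of 23 clustered protocadherins, which give neurons their surface identity, 13 were higher in brain and none in cerebellum. The medians of these ribosomal, V-ATPase, collagen and protocadherin genes kept their sign under library size scaling. Of 40 kinesins, 12 were higher in brain and 7 in cerebellum. Their median was -0.04, and 0.05 with all 29 count libraries in 1 fit.

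Genes higher in 1 tissue also lay in runs of neighbours. On chromosome 9, 11 neighbouring genes around Zic1 and Zic4 (91128484 to 92271975, mm10) were higher in cerebellum, as were 9 around Zic5 and Zic2 on chromosome 14 (122456780 to 122983246). On chromosome 3, 11 neighbours from 4930455H04Rik to Dpyd (116968267 to 119432918) were higher in brain. These runs were not tested.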
